A study of Mus musculus with 9 samples.

Results

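Kinesins are ATP-driven motor proteins that walk along microtubules or shorten their ends. The genes described here are all rows of the deposited expression table whose name begins with *Kif* followed by a digit or a c, 38 of its 15184 genes, each protein coding and each found once in the GENCODE annotation of GRCm39. They were sorted by general knowledge of what each motor does into 13 mitotic kinesins, 17 transport kinesins, 6 kinesins of the cilium or centriole and 2 others. This sorting was made with earlier results of these data known. Of the kinesins listed for these roles, *Kif2b*, *Kif19b*, *Kif12*, *Kif25*, *Kif26a* and *Kif28* had no row in the table.

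The RNA came from wild-type mouse embryonic fibroblasts (MEFs), which are connective tissue cells grown from embryos. 3 libraries were from cells with the empty vector and 3 each were from the lines SAM1 and SAM2, both labelled *Hnrnpk*_SAM. The synergistic activation mediator (SAM) recruits transcriptional activators through a catalytically dead Cas9 and a guide RNA, here aimed at *Hnrnpk*, which encodes an RNA-binding protein. By the study's methods each line carried the activator components by lentiviral transduction and was selected with blasticidin and hygromycin. Those methods used 2 guides separately and name the vector with a non-targeting guide as the control. The methods print the same sequence for *Hnrnpk* guide 2 and for the non-targeting guide. The labels do not state which guide a line carried. They also do not say whether the 3 libraries of a group were separate cultures, so that p-values measure the spread between these libraries, which may be technical. They do not state how many transduced populations a group holds.

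Mitotic kinesins build the spindle, move chromosomes and complete cytokinesis, and their mRNAs accumulate in G2 and M phase in dividing cells. Transport kinesins carry vesicles, organelles and protein complexes along microtubules at all stages of the cell cycle, and several are known chiefly from neurons. Dynein, the motor of the opposite direction, works with the dynactin complex.

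From 41759636 to 49026626 reads per library lay on the listed genes (median 46350100). Values are counts divided by the authors' size factors, called normalized counts here, and a change is a log2 fold change of (normalized count + 1). *Hnrnpk* was at 25058, 26098 and 26164 normalized counts in empty vector MEFs, at 24102, 24045 and 23619 in SAM1 and at 26608, 26859 and 26221 in SAM2. The targeted mRNA was therefore slightly below empty vector in every SAM1 library and slightly above it in every SAM2 library. Across the 6 libraries labelled *Hnrnpk*_SAM its log2 fold change was -0.03 (SE 0.05, limma adjusted p = 0.642), while quantile normalization gave 0.16 with a limma adjusted p of 0.0199 and turned the SAM1 value from -0.11 to 0.09. The SAM1 fall passed the test (limma adjusted p = 0.00252). The SAM2 change was 0.04 (SE 0.03, limma adjusted p = 0.159). With the authors' size factors neither line was clearly raised, so the groups are named by their labels. The study reported higher *Hnrnpk* mRNA by qRT-PCR and more of its protein by Western blot in its SAM MEFs. All 12 fibroblast markers were in the table, and their summed level ran from 1039030 to 1130890 in empty vector, from 880869 to 937377 in SAM1 and from 1162150 to 1200720 in SAM2. Members of that list moved apart, since *Dcn* (decorin) was lower over both lines by -2.17, *Pdgfra* by -0.71 and *Thy1* by -0.48, while *Pdgfrb* was higher by 0.74. Of the 3 genes present from 8 epithelial markers, *Cldn4* (claudin 4) averaged 365.8, 3691 and 211.1 normalized counts in empty vector, SAM1 and SAM2, and among 4 of 5 endothelial markers present *Kdr* (a VEGF receptor) averaged 210.7, 4693 and 535.7. Of the other endothelial markers *Cdh5* averaged 77.58, 64.67 and 51.21, *Tek* 35.56, 29.05 and 67.1 and *Pecam1* 12.9, 29.45 and 11.99. Of the immune list 3 of 6 genes were present, summing to 1409.65 to 1438.09, 2351.59 to 2468.74 and 1713.76 to 1729.77, although *Csf1r* averaged 224.8, 251.6 and 111.4, and of the muscle list *Des* alone of 5, which averaged 67.69, 101.6 and 232. The part of such cells in the results was not tested.

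The first question was whether the kinesins moved as a family between empty vector MEFs and the 6 libraries labelled *Hnrnpk*_SAM. The mitotic kinesins rose together, 13 of 13, with log2 fold changes from 1.01 to 1.74 and a median of 1.42. That count depends on the sorting, since *Kif2a*, which also works in spindles, was put among the others. Its change was 0.02 (SE 0.09, limma adjusted p = 0.834). The transport kinesins did not all share a direction, although 13 of 17 changes were above 0. Of the 17, 8 were called higher, 3 were lower and 6 did not pass the test. Their median was 0.32, and 0.20 without empty vector replicate 2. Differences between the lines count as spread in this comparison. With the mean of the lines in a fit with 3 groups, 14 of 17 were called. Of the 6 cilium or centriole kinesins 4 were higher and 1 lower, and of the 2 others 1 was lower. Over all 15184 genes, 26.8% were called higher and 27.0% lower (limma, adjusted p below 0.05), and the median change was 0.01. The 38 members together had 25 called higher and 5 lower. RNA was measured in bulk, so a larger share of cells in G2 and M phase and more of these mRNAs per cell cannot be told apart. The study reported more SAM MEFs in G2 and M phase by flow cytometry, and higher G2/M checkpoint genes in its RNA-Seq. It also reported less newly made RNA in these cells by a labelling assay. The part of either in the kinesin changes was not tested.

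**Figure D1:**
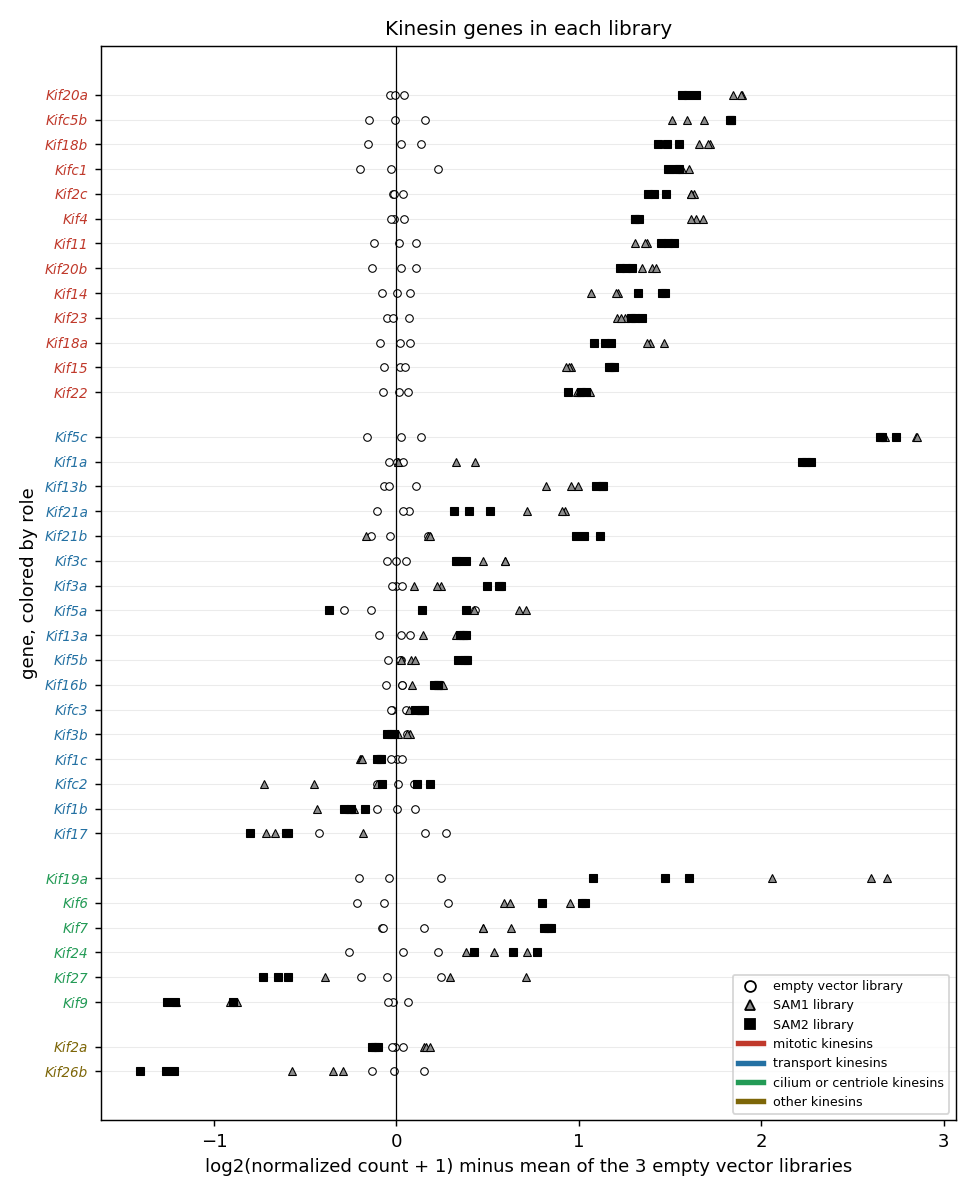
Level of each of the 38 kinesin genes in each of the 9 libraries, as log2(normalized count + 1) minus the mean of the 3 empty vector libraries on the x axis, with genes on the y axis colored by role. Circles are empty vector, triangles SAM1 and squares SAM2. The filled symbols of all 13 mitotic kinesins lie right of the circles, whereas those of the transport kinesins lie on both sides.

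Among the mitotic kinesins that build the spindle, *Kif11* encodes the bipolar motor that pushes the poles apart. It was at 1263, 1148 and 1348 normalized counts in empty vector, at 3241, 3090 and 3217 in SAM1 and at 3510, 3420 and 3594 in SAM2. Every library of either line was above every empty vector library, a log2 fold change of 1.42 (SE 0.06, limma adjusted p = 1.98e-07). *Kif15*, which assists *Kif11* in holding the spindle bipolar, was at 598.5, 636.5 and 649.5, then 1221, 1208 and 1196, then 1422, 1407 and 1435 normalized counts. SAM2 was the highest group for *Kif15*, with no overlap between any of the groups. *Kifc1*, a minus-end motor that focuses spindle poles, was at 198.5, 266.8 and 223.1 in empty vector, 644.5, 694.2 and 676.8 in SAM1 and 668.6, 640.7 and 661.6 in SAM2. Both lines lay above empty vector and overlapped each other (log2 fold change 1.54, SE 0.09). *Kifc5b*, a close relative of *Kifc1*, was at 59.33, 53.57 and 66.59, then 193.6, 171.8 and 181.6, then 214.6, 215.1 and 214.3 normalized counts. It rose by a log2 fold change of 1.71 (SE 0.11), but 37.8% of the 43-base words of *Kifc1* transcripts also occur in *Kifc5b* and 34.7% of the words of *Kifc5b* occur in *Kifc1*, a word being as long as one read. The split of reads between this pair is therefore uncertain.

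Motors that act on chromosomes and microtubule ends rose as well. *Kif2c* encodes a microtubule depolymerase that frees wrongly attached kinetochores. Its normalized counts were 650.6, 627.1 and 629.7 in empty vector, 1967, 1946 and 1946 in SAM1 and 1769, 1692 and 1653 in SAM2, so SAM1 was highest and no groups overlapped (log2 fold change 1.52, SE 0.07). *Kif18a*, which damps chromosome movements at the spindle equator, was at 559.6, 498.9 and 539.7, then 1394, 1382 and 1474, then 1204, 1128 and 1177. *Kif18b*, its relative at the ends of astral microtubules, was at 472.6, 385.5 and 436.9, then 1415, 1361 and 1408, then 1259, 1204 and 1165. For both kinesin-8 genes the order was empty vector, SAM2, SAM1. *Kif22* binds chromosome arms and pushes them from the poles, and was the mitotic kinesin with the smallest rise, 1.01 (SE 0.04). Its normalized counts were 858.3, 942.2 and 911.2 in empty vector, 1794, 1884 and 1807 in SAM1 and 1819, 1859 and 1732 in SAM2, equal to 2.01 times empty vector on the log scale. *Kif4*, a motor of chromosome arms and of the central spindle, was at 1278, 1263 and 1328, then 4026, 3943 and 4130, then 3245, 3186 and 3197. The rise of *Kif4* was larger in SAM1 than in SAM2, and its SAM2 minus SAM1 difference of -0.33 (SE 0.03, limma adjusted p = 2.02e-06) was the largest in size among the mitotic kinesins.

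The kinesins of the midzone and of cytokinesis formed the third set. *Kif20a* carries the chromosomal passenger complex to the central spindle. It was at 2050, 1947 and 1980 normalized counts in empty vector, 7141, 7390 and 7383 in SAM1 and 6027, 6219 and 5903 in SAM2. The log2 fold change was 1.74 (SE 0.08, limma adjusted p = 2.93e-07), or 3.34 times, close to that of *Kifc5b*, and the groups did not overlap. Of the annotated exon bases of *Kif20a* 54.8% overlap *Cdc23* on the opposite strand, and the strand setting of the counting is not given in the sources used here. *Kif20b*, a motor of late cytokinesis, was at 1558, 1318 and 1467, then 3810, 3668 and 3872, then 3539, 3383 and 3458. *Kif23*, which with *Racgap1* forms centralspindlin, was at 1469, 1351 and 1379, then 3334, 3228 and 3289, then 3407, 3554 and 3458 normalized counts. The *Kif23* libraries of both lines lay far above empty vector, by 1.27 (SE 0.04), and those of SAM2 lay slightly above those of SAM1. *Kif14*, which recruits citron kinase to the midbody, was at 389.8, 370.8 and 349.3, then 857.1, 774.2 and 850.6, then 1025, 925.4 and 1017, with SAM2 highest and a change of 1.29 (SE 0.09).

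Each line alone gave the same mitotic count as both together. In SAM1 13 of 13 mitotic kinesins were higher than empty vector (0.94 to 1.87, median 1.41), beside 37.3% of all genes called higher and 36.9% lower. In SAM2 13 of 13 were higher (0.996 to 1.83, median 1.42), beside 35.2% higher and 35.3% lower. Of the 17 transport kinesins 10 were higher and 3 lower in SAM1 (median 0.19). In SAM2 11 of them were higher and 3 lower (median 0.35). Across 715 fits of a mitotic kinesin against empty vector under other settings or with 1 library left out, the log2 fold change stayed between 0.90 and 1.93 and the largest adjusted p was 0.000105.

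Sequence next to the start site was also described for these genes. The letters are those of a reference genome, and the roles came from general knowledge. Their shares therefore do not measure regulation in these cells, and any part of it in the rise was not tested. Many promoters of genes expressed in G2 and M phase carry a cell cycle homology region (CHR), a short element near the start that MuvB complexes bind, often next to CCAAT boxes bound by NF-Y. RefSeq promoters of the older mouse build GRCm38.p6, from 250 bases before to 50 after the start, were searched on both strands for TTTGAA or TTCGAA (reverse complements TTCAAA and TTCGAA) and separately for CCAAT (reverse complement ATTGG). The table held a promoter for 12 of 13 mitotic and 11 of 17 transport kinesins. The CHR letters were present in 11 of 12 mitotic promoters (91.7%) and in 1 of 11 transport promoters (9.09%), against 21.7% of the 27025 genes with a promoter and 16.6% of the 11165 of them in the deposited table. The CCAAT letters were in 8 of 12 mitotic and 3 of 11 transport promoters, against 41.1% of all genes. The mitotic promoter without the CHR letters was that of *Kif18a*, and the transport promoter with them was that of *Kif1a*. They also stood 9 bases before the start of *Kif26b*, which fell. Of the cilium or centriole kinesins 2 of 5 promoters (40%) held them, those of *Kif24* and *Kif27*. Within 50 bases of the start, a window chosen after the positions were seen, the CHR letters stood in 9 of 12 mitotic promoters and in 6.12% of all genes.

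The windows below show 30 bases around the CHR letters, read along the gene, for 6 of the 9 mitotic members with letters within 50 bases of the start, with the matching letters in capitals. *Kif11* (chr19:37376351-37376380, plus strand) and *Kif15* (chr9:122951050-122951079, plus strand) have them beginning 19 bases before the start, *Kif22* (chr7:127042420-127042449, minus strand) 17 bases before it, and *Kif23* (chr9:61946780-61946809, minus strand) 2 bases after the first transcribed base. *Kifc1* (chr17:33890615-33890644, minus strand) and *Kifc5b* (chr17:26917108-26917137, plus strand) are nearly alike in this window.
Kif11: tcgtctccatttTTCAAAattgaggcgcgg
Kif15: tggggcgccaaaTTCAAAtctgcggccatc
Kif22: gggccccggtaaTTCAAAagagagaagcgg
Kif23: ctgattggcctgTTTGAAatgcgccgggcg
Kifc1: cggaggttgaaaTTCAAAagtggcgggtgt
Kifc5b: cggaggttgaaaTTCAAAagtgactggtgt

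Longer stretches, 120 bases before the start, are shown for *Kif11* (chr19:37376262-37376381, plus strand) and *Kif14* (chr1:136467728-136467847, plus strand), which rose, and for the transport kinesin *Kif3b* (chr2:153291296-153291415, plus strand), which did not pass the test, with CHR and CCAAT letters in capitals. Of these stretches that of *Kif11* holds both, while those of *Kif14* and *Kif3b* hold the CCAAT letters alone. The CHR letters of *Kif14* begin 228 bases before its start. A match is a run of letters, not a measured binding site.
Kif11: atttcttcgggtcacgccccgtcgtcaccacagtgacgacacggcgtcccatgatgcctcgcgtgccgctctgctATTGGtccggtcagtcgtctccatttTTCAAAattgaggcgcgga
Kif14: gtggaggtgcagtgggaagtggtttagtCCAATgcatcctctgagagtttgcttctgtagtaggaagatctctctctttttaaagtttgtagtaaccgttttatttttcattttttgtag
Kif3b: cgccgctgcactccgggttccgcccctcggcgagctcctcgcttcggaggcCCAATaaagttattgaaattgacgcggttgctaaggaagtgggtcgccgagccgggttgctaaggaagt

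**Figure D2:**
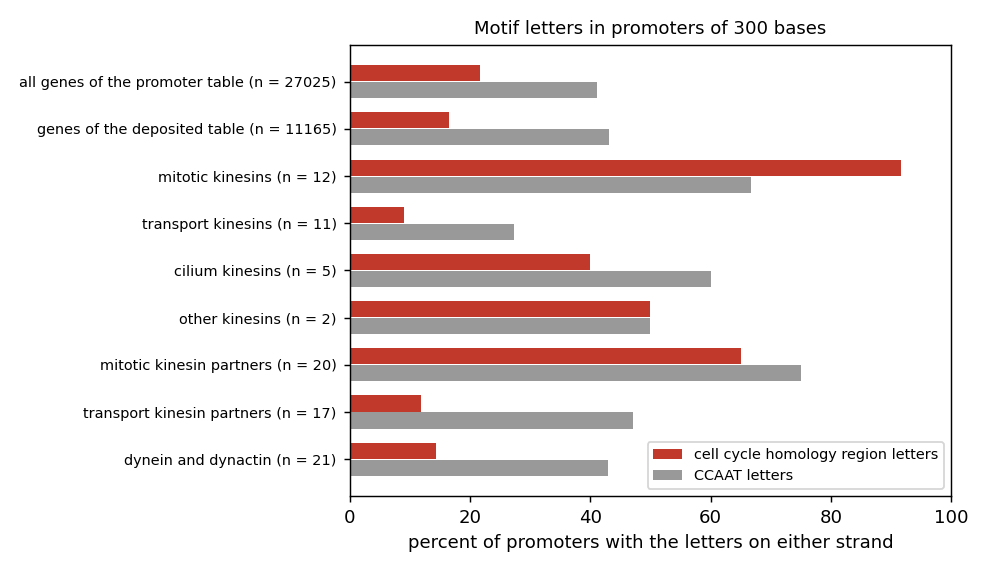
Percent of RefSeq promoters of 300 bases that hold the CHR letters (red) or the CCAAT letters (gray) on either strand, on the x axis, for each gene list with n promoters on the y axis. The CHR bar reaches 91.7% for mitotic kinesins and 65% for their partners, against 9.09% for transport kinesins and 21.7% for all genes.

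Among transport kinesins the largest change was that of *Kif5c*, one of 3 genes for the heavy chain of kinesin-1 and known mainly from neurons. It was at 53.2, 49.37 and 43.22 normalized counts in empty vector, 355, 315 and 355.5 in SAM1 and 328.3, 308.8 and 311.8 in SAM2. Both lines lay far above empty vector and overlapped each other (log2 fold change 2.74, SE 0.09, limma adjusted p = 3.82e-08, or 6.67 times). *Kif5b*, the kinesin-1 heavy chain of most cells, was at 16146, 15357 and 16048, then 16767, 16142 and 17016, then 20718, 20036 and 20556. It rose in SAM2 (0.37, SE 0.03, limma adjusted p = 1.58e-07), while in SAM1 its change was 0.07 (SE 0.03, limma adjusted p = 0.0507). *Kif5a*, the other neuronal heavy chain, ranged from 27.82 to 59.8 normalized counts over the 9 libraries. Empty vector overlapped both lines, and the pooled change was 0.33 (SE 0.26, limma adjusted p = 0.322). Its SAM1 change was 0.60 (limma adjusted p = 0.0268) and missed the threshold when any of 4 libraries was left out (0.46, limma adjusted p = 0.0995, without empty vector replicate 2). Per kilobase of exon *Kif5c* remained far below *Kif5b*: means were 3.41 and 1230 normalized counts per kb in empty vector and 22.2 and 1580 in SAM2.

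Of the neural marker list, fixed for the check of other cell types, 6 of 12 genes were in the table. Their summed level ran from 3270.98 to 3529.4 in empty vector, 9443.15 to 9572.79 in SAM1 and 8828.13 to 9048.5 in SAM2. Most of that sum, and its rise, was *Nes* (nestin), which averaged 1960, 8134 and 7735 normalized counts in empty vector, SAM1 and SAM2. *Nes* was higher by 2.02 and *Tubb3* (a neuronal beta tubulin) by 1.32. *Map2* and *Syt1* were lower by log2 fold changes of -0.94 and -1.23, *Stmn2* averaged 14.95 normalized counts in empty vector and 0.9376 in the 6 other libraries, and *Syp* did not pass the test. *Rbfox3*, *Snap25*, *Dcx*, *Sox2*, *Gfap* and *Neurod1* had no row in the table. The part of these genes' cells in the *Kif5c* result was not tested.

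Kinesin-3 genes move membrane cargo, except the mitotic *Kif14*. *Kif13b*, a motor of signaling and membrane proteins, was at 1317, 1166 and 1189 normalized counts, then 2437, 2154 and 2375, then 2671, 2607 and 2680, a rise of 1.02 (SE 0.08) in which the groups did not overlap. *Kif13a*, which moves endosomes and Golgi-derived vesicles, was at 1679, 1488 and 1618, then 2057, 1762 and 2001, then 2028, 2078 and 2050 and rose by 0.32 (SE 0.06, limma adjusted p = 0.00181). *Kif16b*, a motor of early endosomes, was at 1571, 1479 and 1574, then 1822, 1633 and 1836, then 1807, 1777 and 1807 and rose by 0.21 (SE 0.05). Both lines lay above empty vector for these 3 genes. *Kif1b* (mitochondria and synaptic vesicle precursors) was lower by -0.27 (SE 0.06), and *Kif1c* (Golgi and adhesion cargo) was lower by -0.14 (SE 0.04). The fall of *Kif1c* depended on scaling: quantile normalization gave -0.03 over both lines (limma adjusted p = 0.532). In SAM2 quantile normalization turned the change from -0.10 to a value within 0.001 of 0. Without empty vector replicate 2 the fall over both lines was -0.13 (limma adjusted p = 0.0582).

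*Kif1a*, which carries synaptic vesicle precursors along axons, separated the lines. It was at 226.1, 231.1 and 219.6 normalized counts in empty vector, 304.7, 227.1 and 283.2 in SAM1 and 1074, 1055 and 1095 in SAM2. The SAM2 libraries stood far above all others, while SAM1 overlapped empty vector. SAM2 was higher than empty vector by 2.25 (SE 0.09, limma adjusted p = 1.06e-10, or 4.75 times) and higher than SAM1 by 1.99 (SE 0.09, limma adjusted p = 7.67e-10). The SAM1 change was 0.26 (limma adjusted p = 0.0184) and missed the threshold without SAM1 replicate 1 (0.17, limma adjusted p = 0.0972), without SAM1 replicate 3 (0.22, limma adjusted p = 0.0641) or without empty vector replicate 3 (0.24, limma adjusted p = 0.0588), and under quantile normalization (0.08, limma adjusted p = 0.472). The summed neural markers, mostly *Nes*, were slightly higher in SAM1 than in SAM2, but members differed. In SAM2 against SAM1 *Map2* was higher by 0.23, while *Tubb3*, *Syt1* and *Syp* were lower by -0.49, -0.43 and -1.15. *Nes* and *Stmn2* did not pass that test. Any part of neural cells in the *Kif1a* result was not tested.

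Kinesin-2 carries cargo into cilia and along axons as a complex of *Kif3a* and *Kif3b* with the adaptor *Kifap3*, and *Kif3c* encodes an alternative motor subunit. *Kif3c* was at 1862, 1793 and 1727 normalized counts, then 2707, 2491 and 2710, then 2331, 2247 and 2263, a rise of 0.45 (SE 0.07) with SAM1 highest, though 34.6% of its exon bases overlap *1110002L01Rik* on the opposite strand. *Kif3a* rose by 0.37 (SE 0.11, limma adjusted p = 0.0185) but missed the threshold without empty vector replicate 1 (0.36, limma adjusted p = 0.0566) or 2 (0.35, limma adjusted p = 0.0626), and *Kif3b* differed by 0.01 (SE 0.04, limma adjusted p = 0.884). Its 9 libraries lay between 3317 and 3622 normalized counts. *Kif17*, the homodimeric kinesin-2, was at 11.13 to 24.53 normalized counts, and its fall of -0.59 (limma adjusted p = 0.0492) missed the threshold when any of 7 of the 9 libraries was left out (largest limma adjusted p 0.191, without empty vector replicate 3).

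The kinesin-4 genes *Kif21a* and *Kif21b* encode motors that restrain microtubule growth in neurons and other cells. *Kif21a* was at 949.4, 840.3 and 926.4 normalized counts, then 1714, 1485 and 1697, then 1191, 1127 and 1291, so both lines were above empty vector and SAM1 was highest (log2 fold change 0.63, SE 0.14). *Kif21b* was at 1643, 1326 and 1426, then 1642, 1299 and 1658, then 2976, 2886 and 3157. Only the SAM2 libraries of *Kif21b* stood apart, with 1.04 against empty vector (SE 0.09, or 2.06 times) and 0.98 against SAM1 (SE 0.09, limma adjusted p = 9.39e-07). *Kifc2*, a minus-end motor of interphase, was at 123.8, 114.5 and 132, then 74.03, 89.86 and 114.3, then 116.7, 133.5 and 140.1, lowest in SAM1, a fall of -0.43 that missed the threshold without empty vector replicate 3 (limma adjusted p = 0.058) or SAM1 replicate 1 (limma adjusted p = 0.0783).

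Kinesins of cilia and centrioles were scarce. *Kif9*, a motor of motile cilia, was at 152.4, 143.9 and 141.4 normalized counts in empty vector, 76.88, 79 and 62.5 in SAM1 and 62.31, 77.89 and 60.31 in SAM2. It fell in every library of both lines, with a log2 fold change of -1.06 (SE 0.13, limma adjusted p = 8.8e-05). *Kif6*, its kinesin-9 relative, changed the other way, by 0.83 (SE 0.17, limma adjusted p = 0.00212). *Kif7*, a regulator of Hedgehog signaling at the ciliary tip, was at 236.3, 201.7 and 202.1, then 296.1, 296.2 and 329.1, then 373.8, 382.9 and 378.6 and rose by 0.68 (SE 0.11) with SAM2 highest. *Kif24*, a centriole motor that restrains cilium formation, rose by 0.58 (SE 0.13). Under quantile normalization *Kif6* (0.53, limma adjusted p = 0.0623) and *Kif24* (0.37, limma adjusted p = 0.0591) missed the threshold. *Kif19a*, which limits the length of motile cilia, was at 5.115, 7.353 and 5.841, then 41.76, 44.44 and 28.32, then 13.85, 18.54 and 20.41 normalized counts. Its libraries did not overlap between groups, but empty vector lay at under 10 normalized counts, so the fitted 1.92 (SE 0.37) depends on the pseudocount and was 1.48 with a pseudocount of 5. *Kif27*, a relative of *Kif7*, was at 17.39, 12.6 and 14.02, then 18.03, 10.86 and 24.41, then 8.901, 8.345 and 9.279, and its pooled change was -0.23 (limma adjusted p = 0.61).

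The members outside these roles did not rise over both lines. *Kif26b*, an atypical kinesin without motor activity known from kidney development and Wnt5a signaling, was at 4403, 3623 and 3932 normalized counts in empty vector, 3118, 2676 and 3247 in SAM1 and 1708, 1497 and 1656 in SAM2. It stepped down from group to group without overlap, by -0.40 in SAM1 (SE 0.08) and -1.30 in SAM2 (SE 0.08, limma adjusted p = 7.54e-09). Over both lines its change of -0.85 (limma adjusted p = 0.0217) missed the threshold without empty vector replicate 1 (-0.78, limma adjusted p = 0.0814) or without empty vector replicate 3 (-0.86, limma adjusted p = 0.062). *Kif2a*, a depolymerase used in interphase, neurons and spindles, went up in SAM1 by 0.17 (SE 0.03) and down in SAM2 by -0.12 (SE 0.03), with 41.1% of its exon bases overlapping *Dimt1* on the opposite strand.

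Subfamilies, which group kinesins by motor sequence, cut across these roles and allow relatives to be set side by side. Within kinesin-13 the mitotic *Kif2c* had a pooled log2 fold change of 1.52, *Kif24* 0.58 and *Kif2a* 0.02. Within kinesin-14 the mitotic *Kifc1* and *Kifc5b* had 1.54 and 1.71, against 0.12 for *Kifc3* and -0.18 for *Kifc2*. Within kinesin-4, *Kif4* had 1.48 and the other 4 genes ran from -0.23 to 0.68. In kinesin-3 the mitotic *Kif14* (1.29) was close to *Kif1a* (1.25), whose pooled value came from SAM2, and to *Kif13b* (1.02). In kinesin-13, kinesin-14 and kinesin-4 the mitotic members had the largest changes of their subfamily. In kinesin-8, with the pseudocount of 1, they did not, since the cilium gene *Kif19a* had 1.92 against 1.27 for *Kif18a* and 1.59 for *Kif18b*. *Kif19a* was at 5.115, 7.353 and 5.841 normalized counts in empty vector, so it passed the authors' filter only through SAM1 and SAM2. Its change depends on the pseudocount, so its rank against *Kif18b* is uncertain.

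The balance of the family was summed per kilobase of exon, which allows levels of genes of different length to be added. The mitotic kinesins summed to 1700 ± 39.8 normalized counts per kb in empty vector (SD, n = 3 libraries), 4894 ± 42.0 in SAM1 and 4466 ± 49.4 in SAM2. Transport kinesins summed to 4986 ± 99.1, 5214 ± 146 and 5787 ± 73.8. The mitotic share of all kinesin signal per kb was 21.81%, 21.83% and 22.26% for empty vector MEFs, 43.37%, 44.31% and 43.39% in SAM1 and 40.33%, 40.55% and 39.59% in SAM2. The mitotic share was higher in each library of either line than in any empty vector library, and SAM1 lay above SAM2. In empty vector the highest levels per kb were those of *Kif1c* (1530 ± 33.9), *Kif5b* (1230 ± 33.3), *Kif2a* (697 ± 14.9), *Kif3b* (610 ± 22.7) and *Kif20a* (397 ± 10.4). In SAM1 *Kif20a* was first (1460 ± 28.2), with *Kif1c* (1330 ± 5.17) and *Kif5b* (1290 ± 34.9) next, whose difference was about as large as their spread. In SAM2 *Kif20a* (1210 ± 31.7) came behind *Kif5b* (1580 ± 27.6) and *Kif1c* (1430 ± 12.4). The share of *Kif20a* rests on the exon overlap given above.

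**Figure D3:**
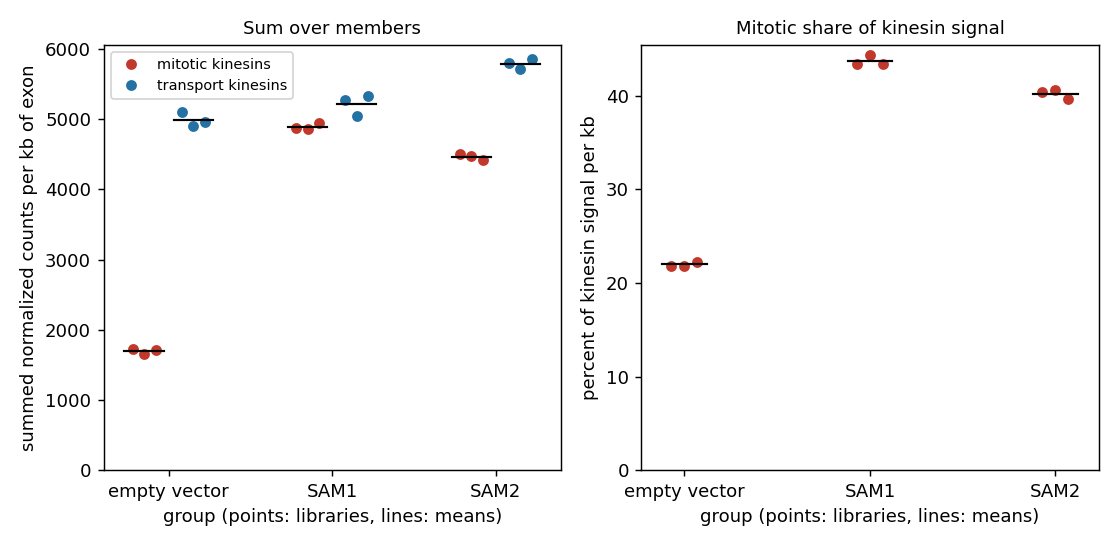
Left, normalized counts per kb of exon summed over the 13 mitotic kinesins (red) and the 17 transport kinesins (blue), y axis, in each library of the 3 groups, x axis. Right, the mitotic share of kinesin signal per kb in percent. Points are libraries and lines are group means. The mitotic share lies near 22% in empty vector and between 39.59% and 44.31% in the 6 other libraries.

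Whether SAM1 and SAM2 differed was tested directly. Between the lines 11 kinesins were higher in SAM2 and 13 were lower, beside 31.1% of all genes called higher and 29.2% lower, so the share of kinesins that differed was near that of all genes. Among mitotic kinesins 3 were higher, 6 lower and 4 did not pass, and no difference exceeded 0.33 in size. Among transport kinesins 7 were higher in SAM2, 3 were lower and 7 did not pass, with a range from -0.55 to 1.99. Differences of at least 0.5 with a limma adjusted p below 0.05 were those of *Kif1a*, *Kif21b* and *Kifc2* (0.50, SE 0.14), which were higher in SAM2, and of *Kif19a* (-1.07, SE 0.26), *Kif26b* (-0.89, SE 0.08), *Kif27* (-0.86, SE 0.30) and *Kif5a* (-0.55, SE 0.22), which were lower. *Kif5a* was at 32.74, 29.41 and 49.07, then 59.8, 58.26 and 48.83, then 47.47, 27.82 and 39.9 normalized counts. The calls for *Kif27* and *Kif5a* between the lines were lost in 4 and 6 of the other settings. For *Kif27* they included leaving out SAM1 replicate 3 (-0.61, limma adjusted p = 0.114), and for *Kif5a* leaving out SAM2 replicate 2 (-0.34, limma adjusted p = 0.21).

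**Figure D4:**
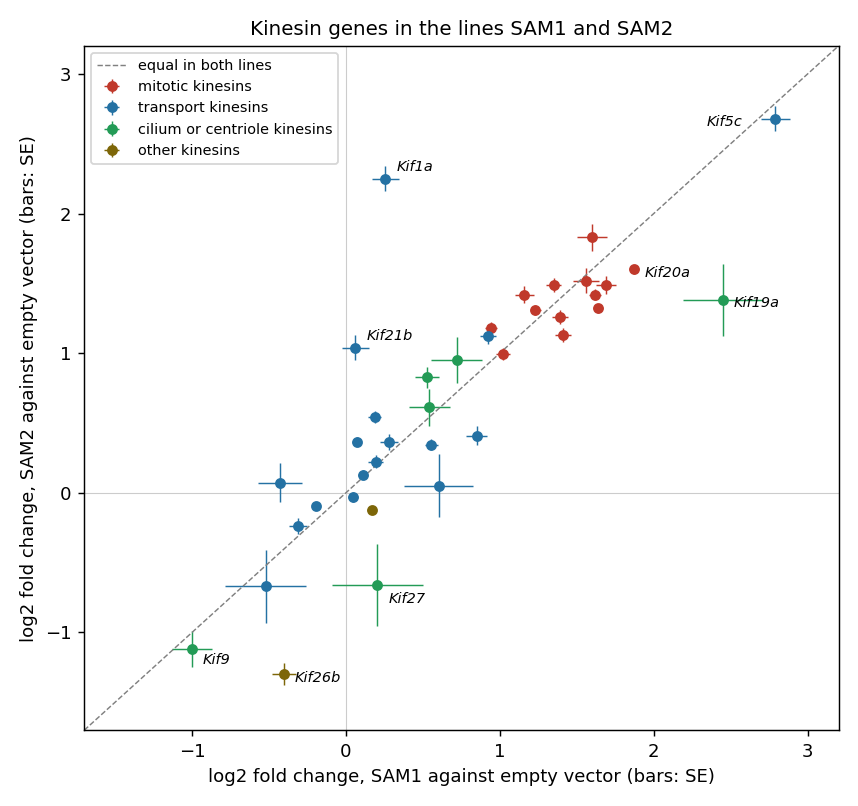
Log2 fold change of each kinesin in SAM1 against empty vector (x axis) and in SAM2 against empty vector (y axis), with SE bars, colored by role. Both axes use the same 3 empty vector libraries. The red mitotic points lie between 0.94 and 1.87 on both axes near the dashed line of equality, while *Kif1a* and *Kif21b* lie above it and *Kif26b*, *Kif27* and *Kif19a* below it.

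Most mRNAs of proteins that work with mitotic kinesins were higher. Of a list of 24 such genes, all in the table, 22 were higher over both lines and none lower, with a median of 1.13, against 26.8% higher and 27.0% lower over all genes and a median of 0.01. *Nusap1*, a microtubule bundler of the spindle, was higher by 1.74 (SE 0.04), *Plk1*, a mitotic kinase, by 1.22 (SE 0.04), *Racgap1*, the partner of *Kif23* in centralspindlin, by 1.13 (SE 0.03), and *Ect2*, a guanine nucleotide exchange factor recruited by centralspindlin, by 1.08 (SE 0.04). *Numa1* (0.04) and *Mapre1* (-0.03) did not pass the test. *Cenpe*, a kinesin of the kinetochore that lacks the *Kif* name and was put on the list of partners, was higher by 1.79 (SE 0.08), more than any mitotic member with that name. The CHR letters were in 13 of 20 promoters of this list (65%), against 2 of 17 for the transport partners and 3 of 21 for dynein and dynactin genes.

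Cargo adaptors and light chains of transport kinesins were mixed. Of 20 listed genes 19 were in the table, 5 higher and 8 lower, with a median of -0.08, against the same 26.8% and 27.0% of all genes. *Madd*, an adaptor of *Kif1a* and *Kif1b*, was higher by 1.03 (SE 0.08), and *Mapk8ip3*, an adaptor of kinesin-1, by 0.76 (SE 0.06). *Klc1*, a light chain of kinesin-1, was lower by -0.42 (SE 0.04), and *Kifap3*, the adaptor of *Kif3a* and *Kif3b*, by -0.54 (SE 0.06). Of 27 genes for dynein, dynactin and their regulators 25 were in the table, 2 higher and 9 lower, with a median of -0.10, against 26.8% and 27.0% of all genes. *Dynlt3*, a dynein light chain, was lower by -0.82 (SE 0.06), *Actr1b*, a subunit of the dynactin filament, by -0.45 (SE 0.03), and *Dctn5*, of its pointed end, by -0.41 (SE 0.03). *Ndel1*, a dynein regulator, was higher by 0.31 (SE 0.04).

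Because the study describes polyploid and aneuploid cells, each kinesin was set beside its chromosome. The 13 mitotic kinesins lie on 10 chromosomes. Their log2 fold change minus the median of the 20 nearest listed genes ran from 1.09 for *Kif14* to 1.88 for *Kif18b*, with a median of 1.45. For transport kinesins the same median was 0.06, with 12 neighbours for *Kif3c*. *Kif5c* exceeded its neighbours by 2.57 and *Kif9* lay -1.02 from its own. *Kif13b* lay among neighbours that were also higher. The 20 nearest genes had a median of 0.76, 19 of them were above 0, and the whole of chromosome 14 had a median of 0.55. The rise of *Kif13b* beyond its neighbours was 0.26.

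**Figure D5:**
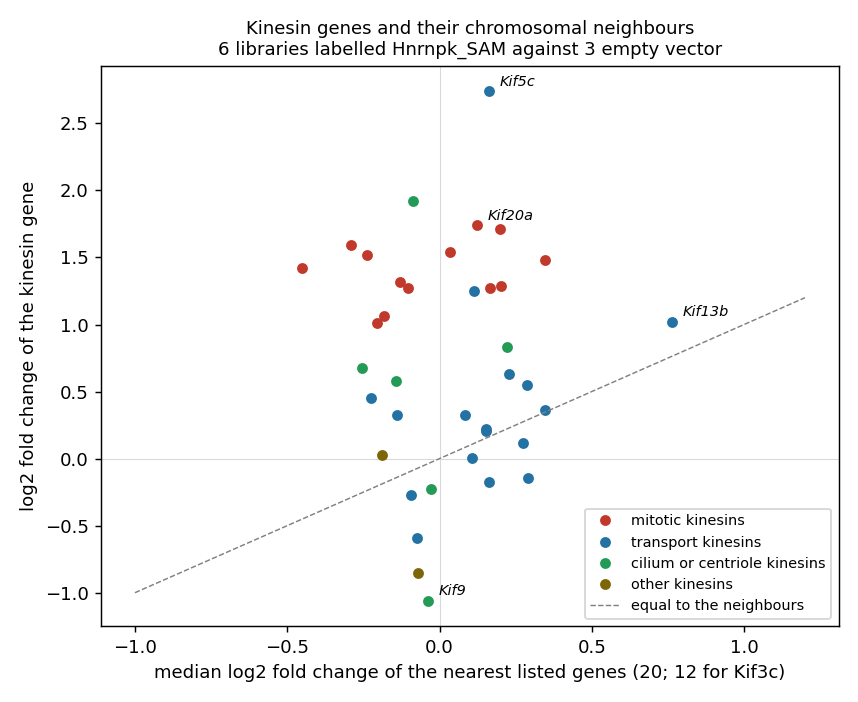
Log2 fold change of each kinesin over the 6 libraries labelled *Hnrnpk*_SAM against empty vector (y axis) and the median log2 fold change of the listed genes nearest to it (x axis), 20 for each kinesin except *Kif3c* with 12, colored by role. On the dashed line a gene changed as much as its neighbours. The mitotic points lie at least 1.09 above the line, and *Kif13b* lies at neighbours of 0.76.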

How the data were processed

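PolyA+ RNA of 9 libraries was made into stranded libraries and read in pairs from both fragment ends. Per the labels and the study's methods, the authors checked reads with FastQC (0.11.0), aligned them to GRCm39 with TopHat2 and Bowtie2 (up to 3 mismatches), counted them per gene with HTSeq, divided by DESeq2 size factors and kept genes above 10 in at least 30% of samples. The deposited unit is thus a signal: normalized counts, not raw ones. Whole reads were recovered from the steps between values (100% whole within 0.001 in each of the 9 libraries) and give the depth. The step of SAM2 replicate 1 was close to 1, and a count test without that library was added after the data were seen.

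Groups came from the labels. log2(value + 1) of all 15184 genes was fitted with limma (3.58.1, trend, R 4.3.3), with Benjamini-Hochberg adjustment over all genes and a threshold of 0.05: first the 6 libraries labelled *Hnrnpk*_SAM against 3 empty vector, then a fit with 3 groups. No set was tested and no p-value was computed over the members. Levels per kb used the union of exons of GENCODE vM39, which also gave positions and overlaps. Protein sequences were not used here, and 1 overlap of a member is not reported here.

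The members, roles and lists were chosen with earlier results of these data known. Values in every library are given for all mitotic kinesins, the 6 transport and 3 cilium or other kinesins with the smallest adjusted p, and those called between the lines with a difference of at least 0.5. 4 genes of each partner list were chosen by adjusted p, other members are named to account for them, and further genes were named after their values were seen. Alternatives were pseudocounts of 0.5 and 5, a filter above 10 in every library, quantile and TMM normalization, a replicate block, edgeR (4.0.16) and DESeq2 (1.42.0) on the recovered reads, the mean of the lines, and each library left out. Tests were checked on simulated data. Replicates of 1 group differed by more than sampling noise. Chi-square per gene was 11.5 to 13.8 in empty vector, 1.46 to 9.49 in SAM1 and 1.54 to 2.33 in SAM2. Each fit used 1 spread for all groups, although the empty vector libraries differed most. Genes that this filter removed were not used here.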

Additional observations from a re-analysis of the deposited data

Results flagged for a closer look

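The lines SAM1 and SAM2 carry the same label, and 24 of the 38 kinesins differed between them by the limma test of the difference itself (adjusted p below 0.05), beside 31.1% of all genes called higher in SAM2 and 29.2% lower. Values are log2 differences, SAM2 minus SAM1. Transport kinesins that were higher in SAM2 were *Kif1a* (1.99), *Kif21b* (0.98), *Kifc2* (0.50), *Kif3a* (0.36), *Kif5b* (0.30), *Kif13b* (0.19) and *Kif1c* (0.10), and those that were lower were *Kif5a* (-0.55), *Kif21a* (-0.44) and *Kif3c* (-0.21). Mitotic kinesins that were higher in SAM2 were *Kif14* (0.26), *Kif15* (0.23) and *Kif11* (0.14), and those that were lower were *Kif4* (-0.33), *Kif18a* (-0.28), *Kif20a* (-0.27), *Kif18b* (-0.21), *Kif2c* (-0.20) and *Kif20b* (-0.13). Of the remaining members *Kif7* was higher (0.30), and *Kif19a* (-1.07), *Kif26b* (-0.89), *Kif27* (-0.86) and *Kif2a* (-0.29) were lower. The calls of *Kif20b*, *Kif11* and *Kif18b* were lost when any of 6, 3 and 1 of the libraries was left out. Line and guide cannot be told apart.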

How the results depend on the processing

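The numbers of kinesins called stayed within 1.5 times under every alternative: with 1 library left out they were 26 to 32 over both lines, 30 to 34 in SAM1, 33 to 35 in SAM2 and 20 to 26 between the lines, and for mitotic kinesins 13 to 13 against empty vector and 6 to 10 between the lines. Transport kinesins called were then 8 to 13, 10 to 14, 13 to 14 and 9 to 11. The mitotic median was 1.36 to 1.47 over both lines, 1.36 to 1.45 in SAM1, 1.38 to 1.43 in SAM2 and -0.0614 to -0.00784 between the lines, and the transport median was 0.196 to 0.334 over both lines. Quantile normalization gave mitotic medians of 1.37 in SAM1, 1.31 in SAM2 and -0.0683 between the lines, edgeR without SAM2 replicate 1 gave 1.39 in SAM2, and with *Cenpe* and *Kif2a* added the median between the lines was -0.129. Without division by exon length the mitotic share was 15.35% in empty vector, 32.86% in SAM1 and 29.76% in SAM2. Dynein and dynactin genes called rose from 11 to 19 with the mean of the lines in the fit with 3 groups. Quantile normalization turned *Kif1c* in SAM2 to 0.00014, and *Hnrnpk* to 0.159 over both lines and 0.0944 in SAM1. The cause of these shifts was not tested. With the replicate number as a block, 30 kinesins were called over both lines (30 without the block), 34 in SAM1, 34 in SAM2 and 25 between the lines, and *Kif5b* in SAM1 (limma adjusted p = 0.0116) and *Kif3b* between the lines (0.0266) passed. Same-numbered libraries deviated together only weakly (r from 0.00237 to 0.117 over 9 pairs of libraries, against -0.122 to 0.046 over 18 other pairs). Deviations from means of 3 libraries cannot settle whether the numbers pair the samples. For single kinesins and *Hnrnpk* 2732 of 2839 comparisons under the alternatives stayed on the same side of the threshold, 26 of them with the other sign and passing under neither setting. Depth limits the members under about 60 normalized counts, such as *Kif17*, *Kif19a*, *Kif27* and *Kif5a*.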
